A study of Mus musculus with 18 samples.

Results

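KDM2A occupancy of gene promoters was compared between activated B cells with and without microRNA 155 (miR-155), gene by gene. Of the 18 samples of the series, the 6 libraries immunoprecipitated with an antibody to KDM2A were used, 3 from WT mice (Mir155-sufficient) and 3 from KO mice (Mir155-deficient), both on a C57BL/6 background. All groups were splenic B cells enriched by removal of other cells, cultured for 2 days at 1% oxygen with an antibody to CD40, a F(ab')2 antibody to IgM and interleukin 4, and fixed with EGS and formaldehyde. In each genotype replicate 1 came from a male mouse and the other replicates from female mice, and no restriction of the Mir155 deletion to B cells was stated. The unit was the protein-coding gene of GENCODE M21, of which there were 21951. A gene was occupied in a library when any peak of that library's list overlapped the region within 2 kb of any annotated transcription start site (TSS) of the gene by at least 1 bp.

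KDM2A is a histone demethylase that removes methyl groups from mono- and dimethylated lysine 36 of histone H3. Its CXXC zinc finger binds CpG dinucleotides that are not methylated, which places the protein at CpG islands, the CpG-rich stretches that cover the promoters of most broadly expressed genes and of many developmental regulators. Kdm2a mRNA is a target of miR-155, a microRNA induced when B cells are activated, and the comparison asks whether loss of the microRNA changes which promoters carry the demethylase. In what follows, a genotype counts as binding a gene when 2 or more of its 3 lists had a promoter peak there. It is called kept when bound in both genotypes, lost when bound in WT only, and gained when bound in KO only. These names describe numbers of lists and are not test results.

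Promoters of the extreme classes are shown here by 30-base stretches, since CpG dinucleotides are what the protein binds. Each is the stretch with the most CpG dinucleotides within 250 bases upstream of the main TSS that lies outside every annotated exon, read 5′ to 3′ on the strand of the gene from the GRCm38.p6 assembly, with CpG dinucleotides in capitals. The first set holds genes with a peak in all 3 WT lists and in no KO list, at chr7:102687328-102687357 (minus strand), chr2:127134075-127134104 (minus) and chr3:108653876-108653905 (plus).
Trim68: gcagaagtgattCGtCGgttcCGgCGcagt
Ncaph: CGCGcccagCGctCGgCGccagaatgtttc
Clcc1: CGCGgCGcagccaatcagcaaCGCGCGCGg
The next set holds genes with a peak in no WT list and in all 3 KO lists, at chr13:62466833-62466862 (minus) and chr8:25994188-25994217 (minus).
Gm49359: ggcaatagaagtagaggCGtgttcttcCGt
Pomk: CGCGcctaCGctggCGCGggCGtccactgt
Genes with the highest folds over all 6 lists are shown for chr9:3030293-3030322 (plus), chr17:34000369-34000398 (minus) and chr6:72958750-72958779 (minus).
Gm10717: CGtttttcagtgatttCGtcatttttcaag
H2-K1: CGgacactgttgaCGCGcagtcagctctta
Tmsb10: CGCGCGtgctCGccCGcacacccacaaccc
The last set holds genes with no promoter peak in any list. Each is the member nearest to the median CpG number of the never occupied genes of its family. The stretches lie at chr15:102920998-102921027 (plus), chr2:85612062-85612091 (minus) and chr11:100135991-100136020 (minus).
Hoxc13: CGcatgCGtagtgggaatgCGgctagggag
Olfr1000: CGttagaatgagatacagttaaacaataat
Krt15: CGctcaaggggaggaggCGaggcccccacc
The stretches of the strict losses held 4, 5 and 7 CpG dinucleotides in the order given, those of the strict gains 2 and 6, those of the highest folds 2, 3 and 5, and those of the never occupied genes 3, 1 and 2. The sets overlapped, as Gm49359 and Gm10717 held no more than Krt15 and H2-K1 no more than Hoxc13. The Gm10717 stretch lay within a peak in WT replicate 1 alone (chr9:3029727-3031371). In the other lists it lay outside the peaks of that gene, so its CpG number does not describe the sequence under them.

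The WT lists held 29105, 23372 and 26831 peaks and the KO lists 15667, 15387 and 21705. A promoter peak was present at 10614, 10283 and 10352 genes in the WT lists and at 8742, 8471 and 9930 genes in the KO lists. All 3 KO lists were below all WT lists, and the third KO list lay nearer to the WT lists than to the other KO lists. The means were 10416 ± 175 genes (SD, n = 3) in WT and 9048 ± 776 (SD, n = 3) in KO. The two-sided exact permutation test over the 6 lists gave p = 0.1, the smallest value that 3 lists against 3 can give, and 0.16 after Benjamini-Hochberg adjustment over the 8 values tested in this way. The number of peaks in a list moved with the genotype, and read depth, which is unknown for these lists, cannot be told apart from binding in it. When each list was cut to its 15387 strongest peaks by fold, the number in the shortest list, 8715 ± 106 genes (SD, n = 3) were occupied in WT and 8652 ± 195 (SD, n = 3) in KO, with an exact permutation p of 0.7.

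With every deposited peak, most bound promoters were bound in both genotypes. Of the 21951 genes, 8655 were kept, 39.4% of all genes, and 5799 of them had a promoter peak in all 6 lists. Another 1826 genes were lost, 8.32% of all genes, and 506 were gained, 2.31%. A further 2356 genes had a peak in some list without being bound in either genotype, and 8608 had none. The strict classes were small: 174 genes had a peak in 3 WT and 0 KO lists, 0.793% of all genes, and 23 had a peak in 0 WT and 3 KO lists, 0.105%. With equal numbers of peaks the counts were 1205 lost and 1132 gained genes, and 61 and 67 genes in the strict classes, so that lost genes outnumbered gained genes with every peak, did so by little with equal numbers, and did not in the strict classes. Of the 1826 lost genes, 1034 were also lost with equal numbers and the other 792 were then bound in neither genotype, and 711 kept genes became gained. With peaks of a fold of at least 3 alone, 2714 genes were kept, 2470 lost and 825 gained, so that the lost and gained genes together outnumbered the kept ones. Leaving out 1 library, both remaining lists of its genotype were required. There were then 1041, 1071 and 1090 lost and 1401, 1284 and 1297 gained genes without WT replicates 1, 2 and 3, and 3272, 3065 and 3801 lost and 300, 276 and 192 gained genes without KO replicates 1, 2 and 3.

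**Figure D1:**
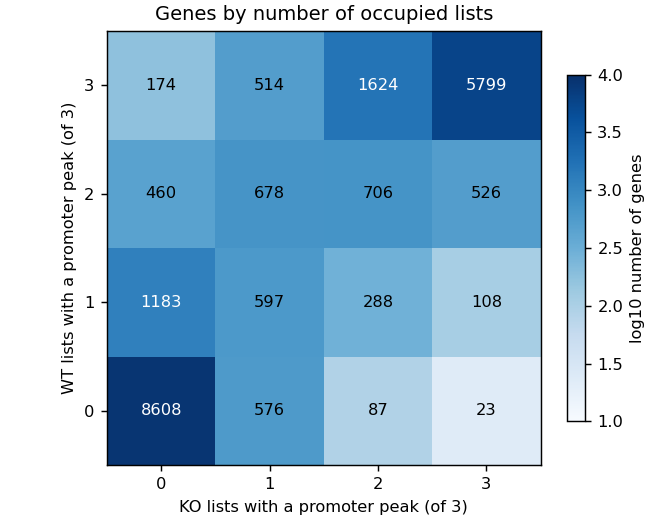
Number of protein-coding genes by how many of the 3 WT lists (vertical axis) and of the 3 KO lists (horizontal axis) had a KDM2A peak within 2 kb of a TSS, shaded by the log10 number of genes. The corners for no list (8608 genes) and all 6 lists (5799 genes) held most genes, and the corner for WT lists only (174) held more than that for KO lists only (23).

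The KO lists contributed unequally to the classes. Of the 1826 lost genes, 327 still had a peak in KO replicate 1, 261 in KO replicate 2 and 604 in KO replicate 3, the longest KO list. Among genes missing from a single list, which count as kept, 630 lacked only KO replicate 1 and 772 lacked only KO replicate 2, against 222 for KO replicate 3 and 144 to 198 for each WT list. In 678 of the 1826 lost genes the count was 2 WT lists against 1 KO list. Pairs of WT lists shared 74.4% to 75.0% of the genes occupied in either list, pairs of KO lists 66.5% to 70.1%, and pairs across genotypes 67.6% to 73.9%. Every WT list therefore shared more genes with KO replicate 3 than any KO list did, as a share of the genes in either. Among genes bound in WT, the lost ones were mostly those with weak peaks. The fold is the ratio of a peak over the local control background. With the genes bound in WT split into 4 bins of equal size by mean WT fold, 39.6% of the lowest bin (up to a fold of 2.85) were lost, then 17.6%, 9.50% and, in the highest bin (from 3.30), 2.94%.

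CpG islands marked the kept promoters. An island lay in the window of 12886 genes and was absent from 9065. Of the island genes, 71.3%, 70.3% and 70.3% were occupied in the WT lists and 61.5%, 59.7% and 68.4% in the KO lists, or 70.6% ± 0.551 against 63.2% ± 4.61 (SD, n = 3 each). Of the genes without an island, 15.8%, 13.5% and 14.2% were occupied in WT and 8.98%, 8.64% and 12.3% in KO, or 14.5% ± 1.16 against 9.97% ± 2.02 (SD, n = 3 each). For both kinds the genotypes did not overlap, and the exact permutation p was 0.1 (adjusted 0.16). KO occupancy was 0.895 of WT occupancy at island genes and 0.687 at genes without an island. Islands made up 87.4% ± 0.796 of the genes occupied in WT against 90.1% ± 1.13 for KO (SD, n = 3 each), again with an exact permutation p of 0.1 (adjusted 0.16). With equal numbers of peaks, island genes were occupied at 60.9% in both genotypes (exact permutation p = 1) and genes without an island at 9.52% ± 0.356 against 8.82% ± 0.411, WT before KO (SD, n = 3 each, exact permutation p = 0.2).

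**Figure D2:**
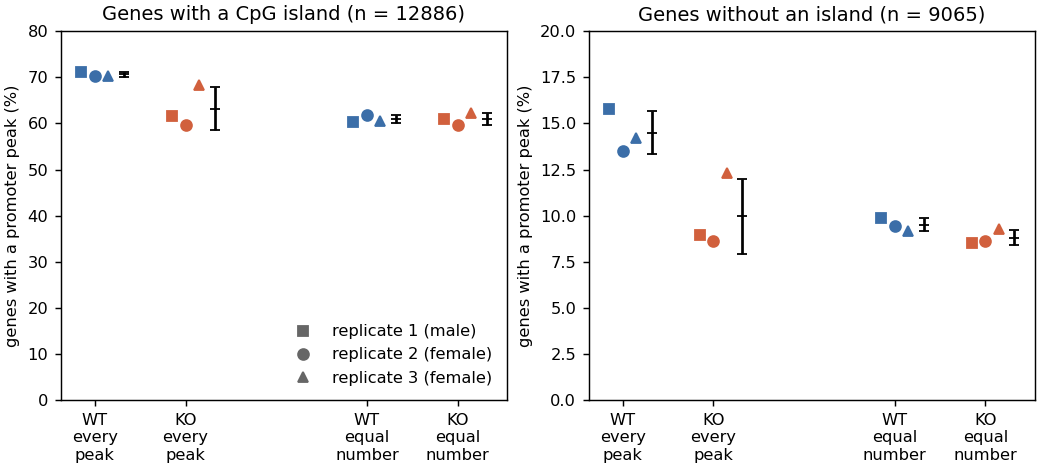
Percentage of genes with a KDM2A promoter peak in each list, for genes with a CpG island (left) and without (right), with every deposited peak and with the 15387 strongest peaks of each list. Symbols are single lists and bars the mean and SD of 3 lists; KO lists sat below WT lists with every peak (63.2% against 70.6% at island genes) and overlapped them at island genes with equal numbers (60.9% in both).

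Among genes bound in WT, 14.2% of those with an island were lost and 42.7% of those without. The order was the same with equal numbers of peaks, at 11.7% and 34.5%, and with peaks of a fold of at least 3, at 46.5% and 70.2%. With equal numbers, 7155 island genes were kept, 945 lost and 942 gained, and 494, 260 and 190 of the others. Set against kept genes, gained genes were thus also more frequent without an island, and the order was not particular to losses. Without 1 of the WT lists, 9.65% to 10.0% of the island genes and 32.2% to 33.3% of the others were lost. Without KO replicates 1, 2 and 3 the losses were 27.7%, 25.8% and 32.5% of the island genes and 58.8%, 56.2% and 65.5% of the others, so that the sizes rested on single libraries and the order did not change. The same gradient ran with the number of CpG dinucleotides between 250 bp upstream and 50 bp downstream of the main TSS. Genes with 0 to 3 CpG dinucleotides were occupied in 11.5% ± 0.447 of cases in WT and 8.76% ± 1.16 in KO, and genes with 30 or more in 77.9% ± 0.704 and 71.9% ± 3.72 (SD, n = 3 each). Of the genes bound in WT, 33.8% were lost at 0 to 3 CpG dinucleotides, 31.2% at 4 to 9, 20.1% at 10 to 19, 13.4% at 20 to 29 and 9.03% at 30 or more. The median CpG number was 22 in kept promoters, 16 in lost, 17 in gained and 3 in those never occupied. Lost and gained promoters thus lay close to each other in CpG number and between the kept and the never occupied ones.

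**Figure D3:**
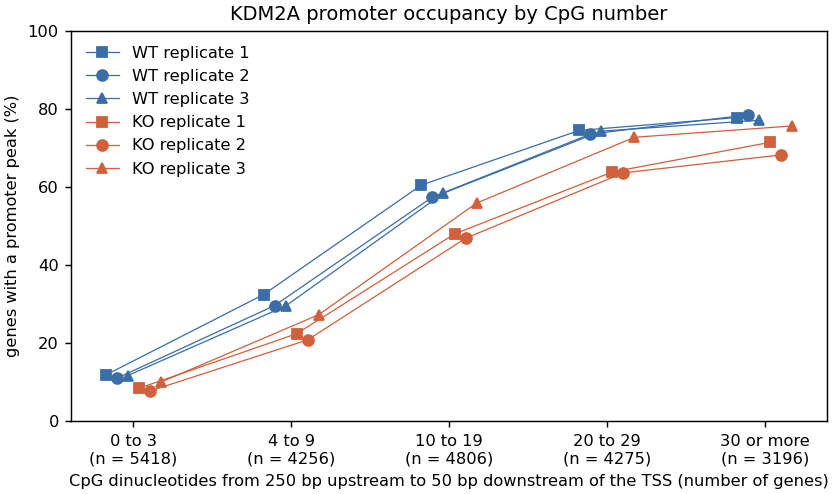
Percentage of genes with a KDM2A promoter peak in each of the 6 lists (vertical axis) by the number of CpG dinucleotides from 250 bp upstream to 50 bp downstream of the main TSS (horizontal axis). In every list occupancy rose with CpG number, from 7.77% to 11.9% of genes in the lowest bin to 68.3% to 78.6% in the highest.

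Other features of the promoters followed the same order. The GC box (GGGCGG), the site of Sp1 family factors, was found on either strand of the 300 bases in 67.7% of kept, 55.3% of lost, 57.7% of gained and 20.7% of never occupied promoters, and in 45.3% of all. The TATA motif TATAAA was in 6.30% of kept, 8.87% of lost, 8.10% of gained and 20.5% of never occupied promoters, and in 12.5% of all. CCAAT differed little, at 38.4% of kept, 37.8% of lost and 39.5% of never occupied promoters. The GC box contains CpG itself, so its share also moves with CpG content. A protein-coding neighbour on the opposite strand whose TSS lay up to 1000 bp upstream, the arrangement of a bidirectional promoter, was present at 14.2% of kept, 6.57% of lost, 9.29% of gained and 0.732% of never occupied genes, and at 7.0% of all genes. Among island genes bound in WT, 8.42% of those with such a neighbour and 15.1% of those without were lost. Kept genes also had more annotated TSS (median 5) than lost (4) and never occupied genes (2), and with them a longer window (8234, 8007 and 4160 bp), which leaves more room for a peak.

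Most promoter peaks sat near the TSS. The strongest promoter peak of an occupied gene was centred within 500 bp of a TSS in 72.9%, 78.4% and 76.8% of genes in the WT lists and in 80.6%, 82.2% and 79.0% in the KO lists. The KO lists were all above the WT lists, at 80.6% ± 1.57 against 76.0% ± 2.80 (SD, n = 3 each, exact permutation p = 0.1, adjusted 0.16). The centre lay on the downstream side in 55.1% of WT and 54.8% of KO cases. Such peaks had a median width of 866 ± 80.3 bp for WT against 760 ± 71.2 bp for KO (SD, n = 3 each, exact permutation p = 0.3, adjusted 0.4), and a median fold of 3.02 ± 0.134 against 2.94 ± 0.0325 (SD, n = 3 each, exact permutation p = 0.5, adjusted 0.571). Peaks of lost genes (median 604 bp) and gained genes (530 bp) were narrower than those of kept genes (950 bp).

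Of the B cell gene lists, those of transcription factors, CD40 and NF-kB, interleukin 4 signalling and MHC class II were nearly all kept, and that of the B cell receptor less so. Of 20 transcription factors of B cells 19 were kept and none was lost, and of 22 genes of the CD40 and NF-kB pathway all 22 were kept, against 39.4% of all genes. Nfkbia, which encodes the inhibitor IκBα, had folds of 4.13, 5.24 and 4.42 in WT and 4.03, 3.03 and 4.00 in KO. Pax5, which maintains B cell identity, had 3.52, 3.62 and 3.42 in WT and 2.78, 2.85 and 2.99 in KO, so that its genotypes did not overlap. Its fold was not called by the test given further on. Of 12 genes of interleukin 4 signalling 11 were kept, among them Stat6 with 3.86, 3.63 and 3.12 in WT and 3.26, 2.70 and 3.37 in KO. Of 16 genes of MHC class II presentation 15 were kept. With equal numbers of peaks the kept genes of these 4 lists were 19, 21, 10 and 11, and 0, 0, 0 and 1 were lost. Of 20 components of the B cell receptor and its coreceptors 16 were kept and 4 lost, where 17.4% of all genes bound in WT were lost. In the female lists alone the loss was 17.6%, against 24.4% of all genes, and with equal numbers of peaks 27.8%, against 13.6%. The 4 lost genes were Ms4a1 (CD20), Btk (the kinase downstream of the receptor), Ptprc (CD45) and Cr2 (CD21). Ms4a1 had folds of 2.80, 3.02 and 3.16 in WT and a peak in KO replicate 1 alone (2.94), and Btk had 2.94, 3.66 and 2.56 in WT and a peak in KO replicate 2 alone (2.58).

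Marker genes of B cells and of other cells were compared with the 39.4% kept and 8.32% lost of all genes, although a promoter peak is no measure of expression. All 8 B cell markers had a peak in some list, 6 were kept, among them Cd79a, Cd79b and Cd22, and Ms4a1 and Cr2, which are also in the receptor list, were lost. None of 11 myeloid markers was bound in either genotype, with 0 to 2 occupied in any list. Of 10 T cell markers 2 were kept (Cd3d and Cd5) and 3 lost (Zap70, Cd247 and Lat), and of 9 erythroid markers 3 were kept (Tfrc, Klf1 and Slc4a1).

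Regulators next to KDM2A in the pathway were mostly kept, where 61.9% of all island genes and 39.4% of all genes were. Kdm2a itself had a promoter peak in all 6 lists, with folds of 3.01, 3.37 and 3.29 in WT and 3.06, 2.78 and 2.79 in KO, which overlapped. Of 22 lysine demethylase genes 18 were kept, 1 was lost (Kdm4a) and 1 gained (Riox2). Of 27 genes of polycomb complexes, whose variant form is recruited to CpG islands by the related protein KDM2B, 25 were kept, with Pcgf6 lost and Rybp gained. Rybp had a peak in WT replicate 2 (3.33) and in the 3 KO lists (2.71, 2.91 and 2.78). Of 10 known targets of miR-155 9 were kept, among them Jarid2 (4.57, 3.82 and 3.49 in WT, 3.08, 3.29 and 3.39 in KO) and Inpp5d, which encodes the phosphatase SHIP1 (3.07, 3.58 and 3.15 in WT, 3.91, 2.47 and 3.18 in KO). Only Jarid2 of this pair had WT folds that were all above the KO folds.

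Genes for energy metabolism were mostly kept, and with every peak each of their lists lost a smaller share of its WT-bound genes than the 17.4% of all genes. Most genes of each list had an island, 72 of 87 for the respiratory chain and 75 of 78 for the mitochondrial ribosome. Of all island genes 61.9% were kept, and 14.2% of those bound in WT were lost. The mitochondrial ribosome, at 14.3%, was not below that share. Of 87 genes of the respiratory chain and ATP synthase, 62 were kept, 10 lost and 2 gained, a loss of 13.9% of those bound in WT. The list was occupied at 71, 69 and 70 genes in WT and 56, 60 and 64 in KO, and with equal numbers of peaks 53 were kept, 10 lost and 7 gained, a loss of 15.9% against 13.6% of all genes. The strict losses were Cox7a2l, a factor of supercomplex assembly (folds of 2.72, 3.26 and 2.84 in WT), the complex I subunits Ndufc2 (2.81, 3.15 and 2.68) and Ndufb8 (2.60, 2.78 and 3.06), and the cytochrome c oxidase subunit Cox4i2 (2.58, 2.69 and 2.61). None of these 4 had a peak in any KO list. The opposite pattern was found at Ndufa12, another subunit of complex I, with no peak in WT and folds of 2.87, 2.71 and 2.83 in KO. Of the subunits examined by the study, Ndufv3 had folds of 2.68, 3.16 and 3.40 in WT and a peak in 2 KO lists (4.28 and 3.04), and Atp5l, a subunit of ATP synthase, had 2.78, 2.86 and 2.49 in WT and 3.56, 2.89 and 3.43 in KO. Every KO fold of Atp5l was above every WT fold, and the limma adjusted p was 0.907.

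Of 78 genes of the mitochondrial ribosome 54 were kept, 9 lost and 5 gained, a loss of 14.3% of those bound in WT and with none in a strict class. Mrpl24 had folds of 3.40, 3.38 and 3.08 in WT and a peak in KO replicate 3 alone (3.17). Of 25 genes of mitochondrial import 16 were kept, 2 lost (11.1%) and 1 gained, and of 18 of the tricarboxylic acid cycle 14 were kept and 2 lost (12.5%), Idh3a and Suclg1. In the female lists alone the ribosomal and tricarboxylic acid cycle lists lost 27.8% and 30.8%, above the 24.4% of all genes. Suclg1 had peaks in WT replicates 1 (2.50) and 2 (3.82) and in no KO list. Glycolysis genes were kept in 23 of 26 cases and oxygen sensing genes in 18 of 20, with 1 lost in each list, Hk3 and Hif1an. Car9, a target of hypoxia-inducible factor, had folds of 2.53, 3.35 and 3.40 in WT and 3.64 and 2.57 in KO replicates 1 and 3.

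The machinery of protein synthesis and turnover was mostly kept, where 39.4% of all genes and 61.9% of all island genes were. Of all genes 8.32% were lost and 2.31% gained. Cytosolic ribosome genes were kept in 75 of 83 cases and lost in 5, and Rpl37a was the strict loss (2.82, 2.84 and 2.62 in WT). Translation initiation factors were kept in 44 of 55 cases, with 2 lost and 4 gained, and Eif4e3, a member of the cap-binding family, was a strict gain (2.56, 2.75 and 2.79 in KO). With equal numbers of peaks 1 initiation factor was lost and 8 were gained. Of 37 aminoacyl-tRNA synthetases 25 were kept, 8 lost and 3 gained, a loss of 24.2% of those bound in WT against 17.4% of all genes, of 23.1% against 13.6% with equal numbers of peaks, and of 26.9% against 24.4% in the female lists alone. With equal numbers 6 synthetases were lost and 7 gained, so that lost genes no longer outnumbered gained ones. Lars was a strict loss (2.64, 3.03 and 2.81 in WT), and Aars had 3.35, 3.63 and 2.62 in WT and a peak in KO replicate 3 alone (3.42). Proteasome genes were kept in 38 of 48 cases with 6 lost and 1 gained, and spliceosome genes in 48 of 58 with 6 lost and 1 gained, losses of 13.6% and 11.1% of those bound in WT. The proteasome list lost 14.6% with equal numbers of peaks, against 13.6% of all genes, so that it turned from below to above the share of all genes. In both lists every lost gene with peaks in 3 WT lists had a peak in 1 KO list.

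Genes of DNA replication were lost in 11 of 45 cases and gained in none, with 31 kept, a loss of 26.2% of those bound in WT against 17.4% of all genes. In the female lists alone the loss was 26.5%, near the 24.4% of all genes. The list was occupied at 39, 39 and 37 genes in WT and 27, 31 and 36 in KO. Rfc3, a subunit of the clamp loader, was a strict loss (2.87, 3.18 and 3.02 in WT). Fen1, the flap endonuclease, had 2.88, 3.37 and 3.33 in WT and a peak in KO replicate 1 alone (2.77), and Rfc4 had 2.46, 3.72 and 3.08 in WT and a peak in KO replicate 1 alone (3.84). The licensing genes Mcm2, Mcm5, Mcm10, Cdc6 and Orc2 were each bound in 2 WT lists and had a peak in 1 KO list. With equal numbers of peaks 27 replication genes were kept, 6 lost and 3 gained, a loss of 18.2% against 13.6% of all genes bound in WT. Cell cycle genes were kept in 31 of 40 cases with 5 lost and 1 gained, and replication-dependent histone genes in 58 of 67 with 4 lost, of which Hist1h4n, Hist1h2ap and Hist1h2br carried the same peaks. Of all genes 39.4% were kept, 8.32% lost and 2.31% gained, and of all island genes 61.9% were kept.

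Developmental genes were seldom bound although most had an island. Of 39 Hox genes, 36 of which had an island, none was kept, 2 were lost and 1 gained, and each list held 3 to 6 occupied Hox genes. Hoxa3 was a strict loss (2.56, 2.68 and 2.96 in WT), and Hoxb4 had a peak in WT replicate 1 (2.44) and in the 3 KO lists (2.70, 2.97 and 2.49). Of 127 developmental transcription factors 18 were kept, 9 lost and 1 gained, and Irx5 was a strict loss (2.94, 2.95 and 2.52 in WT). Of 41 Wnt and Fgf ligands 8 were kept, 5 lost and 1 gained, with Wnt3 a strict loss (2.44, 3.20 and 2.68 in WT). These lists of transcription factors and ligands lost 33.3% and 38.5% of the genes bound in WT, and 21.4% and 30% with equal numbers of peaks, where all genes lost 17.4% and 13.6%. With equal numbers the transcription factors had 3 lost and 7 gained genes, so that gained genes outnumbered lost ones there. The ligands then had 3 lost and 2 gained genes. Of the 183 genes in these 3 lists that had an island, 13.7% were kept and 49.7% were never occupied, with a median of 19 promoter CpG dinucleotides. Of 446 island genes in 8 lists of housekeeping functions (both ribosomes, respiratory chain, proteasome, spliceosome, translation initiation, tRNA synthetases and DNA replication), 80.3% were kept and 2.02% never occupied, with a median of 20. All island genes lay between, with 61.9% kept and 15.0% never occupied. The separation was present in every list: 14.8% to 28.4% of the developmental island genes were occupied against 74.4% to 89.0% of the housekeeping island genes.

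Families of sensory receptors and keratins were almost empty. Of 1135 olfactory receptor genes 2 were kept (Olfr56 and Olfr373), and single lists held 8 to 17 of them. Of 106 keratin and keratin-associated genes Krt10 alone was kept, and of 365 vomeronasal and taste receptor genes 2 were kept (Tas1r1 and Vmn1r4). Interleukin and chemokine genes were occupied more often, and of 92 genes 8 were kept, 4 lost and 2 gained, against 39.4%, 8.32% and 2.31% of all genes. Il10 had peaks in WT replicates 1 (2.45) and 3 (2.81) and in no KO list, while Il18 had peaks in KO replicates 1 (2.61) and 3 (2.85) and in no WT list. Larger mixed families lay between these extremes. Of 394 Zfp zinc finger genes 165 were kept, 54 lost and 18 gained, of 342 solute carriers 131 were kept, 38 lost and 6 gained, and of 215 ion channels 41 were kept, 11 lost and 4 gained. The losses were 24.7%, 22.5% and 21.2% of those bound in WT against 17.4% of all genes, and with equal numbers of peaks 20.4%, 11.4% and 13.9% against 13.6%, so that the solute carriers turned from above to below the share of all genes. In the female lists alone the ion channels did so, at 22.7% against 24.4%. With equal numbers of peaks gained genes outnumbered lost ones in each of these families. Lost and gained genes were then 34 and 41 for Zfp genes, 14 and 23 for solute carriers, and 5 and 9 for ion channels.

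**Figure D4:**
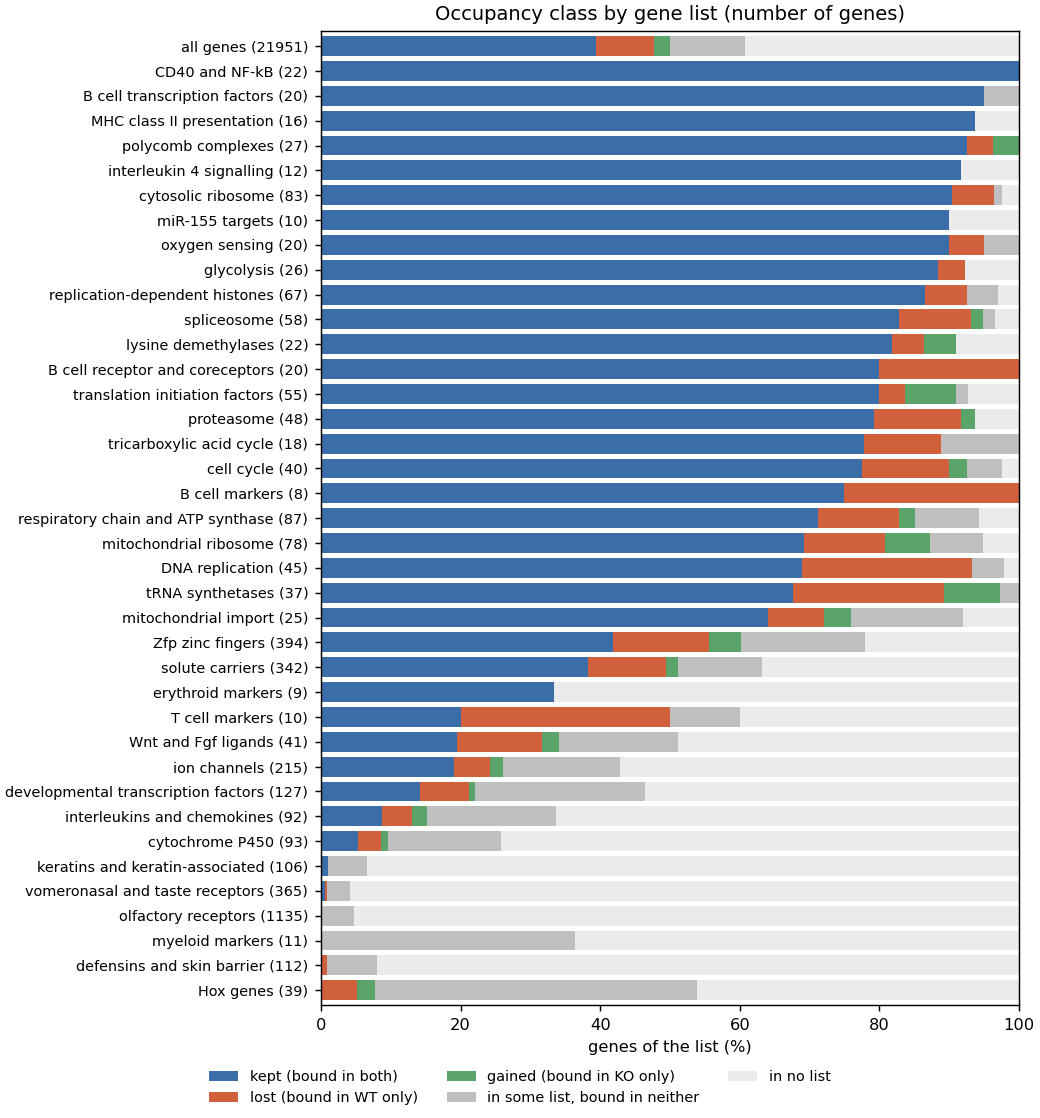
Share of the genes in each list (vertical axis, number of genes in parentheses) that were kept, lost, gained, in some list but bound in neither genotype, or in no list (horizontal axis, percent). CD40 and NF-kB genes were kept in 22 of 22 cases and Hox genes in none of 39, and neither the CD40 and NF-kB list nor the olfactory receptors held a lost gene (8.32% of all genes were lost).

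The genes with the highest folds among the strict losses came from several functions. Trim68, which encodes a ubiquitin ligase of the TRIM family (chromosome 7, 102677582 to 102687327, minus strand), had folds of 3.64, 4.07 and 2.94 in WT. Ncaph, a subunit of condensin I (chromosome 2, 127103809 to 127133954, minus), had 3.37, 3.93 and 2.88, although in WT replicate 3 the strongest peak lay at an internal TSS and the peak at the main TSS had 2.53. Clcc1, a chloride channel of the endoplasmic reticulum (chromosome 3, 108653913 to 108678840, plus), had 3.88, 2.96 and 3.18, from peaks at chr3:108653022-108654228, chr3:108653869-108654221 and chr3:108653264-108654491. Chid1 had 2.91, 4.10 and 2.89. Taf1a, a subunit of the selectivity factor of RNA polymerase I, had 3.08, 3.21 and 3.59, and Spg21 had 3.76, 2.56 and 3.26. None of these 6 genes had a promoter peak in a KO list. The median of the mean WT folds over the 174 strict losses was 2.80.

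The strict gains had lower folds, with a median of 2.70 over the 23 genes. Gm49359, a predicted gene on chromosome 13, had the highest mean, with folds of 2.87, 2.55 and 3.55 in KO. Pomk, a kinase that modifies the sugar chain of dystroglycan (chromosome 8, 25980604 to 25994133, minus), had 3.19, 2.67 and 2.84, from peaks of 227 to 275 bp that overlapped its TSS or lay beside it. Mtr, which encodes methionine synthase, had 2.84, 2.66 and 2.90, and Tspan5, a tetraspanin, had 3.11, 2.49 and 2.76. At Egf, which encodes epidermal growth factor and had no CpG dinucleotide in its promoter, the 3 KO peaks (2.84, 2.68 and 2.88) were centred at positions -291, -1556 and -1221 bp from the nearest of its annotated TSS rather than at one place. No WT list had a peak in the windows of these genes. With equal numbers of peaks 17 of the 23 gains and 48 of the 174 losses stayed in their class.

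**Figure D5:**
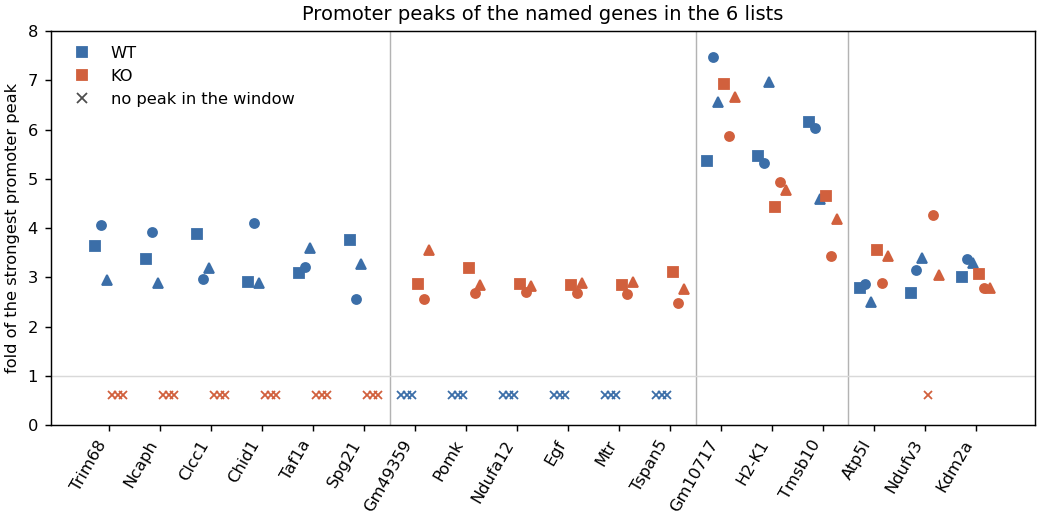
Fold of the strongest KDM2A promoter peak (vertical axis) in each of the 6 lists for genes named by a fixed rule: strict losses, strict gains, the highest folds in all lists, and 3 genes of interest. Squares, circles and triangles are replicates 1, 2 and 3, and crosses below 1 mark lists without a peak; strict losses and gains lay between 2.49 and 4.10, and the highest genes between 3.44 and 7.48.

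The strongest promoter peaks of all were kept. Gm10717 and Gm17535, predicted genes at the proximal end of chromosome 9 (3025417 to 3033289 and 3034599 to 3035805), shared a peak of 410 to 412 bp and had the highest mean folds over the 6 lists, although H2-K1 was above them in WT replicates 1 and 3 and Tmsb10 in WT replicate 1. In WT replicate 1 the strongest peak of Gm10717 was a wider one inside the gene. The folds of Gm10717 were 5.37, 7.48 and 6.57 in the WT lists and 6.93, 5.87 and 6.66 in the KO lists. Predicted gene models lie close together there, and reads shared with near-identical copies could not be told apart, so the assignment to single genes is uncertain. H2-K1, an MHC class I heavy chain (chromosome 17, 33996017 to 34000347, minus), followed with 5.47, 5.32 and 6.97 in WT and 4.42, 4.93 and 4.78 in KO, from peaks of 5648 to 17360 bp that covered the whole gene. Tmsb10, which encodes an actin-binding thymosin, had 6.16, 6.03 and 4.60 in WT and 4.66, 3.44 and 4.19 in KO. The H2-K1 folds did not overlap between genotypes and those of Tmsb10 did. All 13 protein-coding genes of the mitochondrial genome counted as kept, since 3 peaks covered 12370 to 12553 bp of it in every list, at folds of 1.65 to 3.33.

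Fold was tested at the 5799 genes with a promoter peak in all 6 lists. With log2 folds centred on the median of each list, limma called 0 genes (0% of those tested) at a Benjamini-Hochberg adjusted p under 0.05, and the smallest adjusted p was 0.907. Without adjustment 305 genes had p under 0.05 (5.26%), 183 higher and 122 lower in KO, where without centring 41 were higher and 316 lower. The centred folds of the genotypes did not overlap at 607 genes (10.5%). The largest differences among these were 0.47 on the log2 scale (SE 0.15) at Ptcd1 and Cpsf4, which share a bidirectional promoter and the same peak, and -0.43 (SE 0.11) at Mfsd8, a lysosomal membrane protein. Ptcd1 had folds of 3.24, 2.95 and 2.88 in WT and 5.00, 3.89 and 3.31 in KO. Atpaf1, an assembly factor of ATP synthase, was higher in KO by 0.41 (SE 0.11), and Dnpep and Nek2 were lower by the same amount, each at a limma adjusted p of 0.907.

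The X chromosome differed from the autosomes. Of 948 X-linked genes, 79 in WT replicate 1, from the male mouse, and 128 and 131 in the female WT lists had a promoter peak, against 33 in the male KO list and 89 and 137 in the female KO lists. The male list was the lowest of each genotype. With equal numbers of peaks the order was the same, at 60, 83 and 93 genes in WT and 33, 89 and 108 in KO. X-linked genes with an island were occupied in 9.14% to 31.6% of cases across the lists, against 60.8% to 72.8% of autosomal genes with an island. Of the X-linked genes bound in WT 51.0% were lost (50 of 98), against 13.1% to 24.3% on single autosomes. This share was 36% to 40.5% without 1 of the WT lists, and 58.2%, 77.6% and 82.7% without KO replicates 1, 2 and 3. With every peak 19 X-linked genes were gained. With equal numbers of peaks 27 of 60 X-linked genes were lost (45%), against 13.4% of autosomal genes, and 26 were gained, nearly as many as were lost. In the female lists alone, 37 of 74 were lost (50.0%), against 24.2% on the autosomes, and KO replicate 3 occupied more X-linked genes than any WT list. With 1 male mouse per genotype, sex and library cannot be told apart.

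H3K36me2, the modification that KDM2A removes, was measured in separate libraries of the same groups and used no KDM2A value. In WT, 67.5% ± 1.19 of the kept genes had an H3K36me2 peak in the promoter window, 57.0% ± 2.74 of the lost, 51.7% ± 1.35 of the gained and 10.3% ± 0.894 of the never occupied genes (SD, n = 3 each). The KO shares, in this order, were 39.6% ± 19.8, 34.8% ± 19.3, 30.2% ± 16.3 and 6.61% ± 3.99 (SD, n = 3 each). The spread of the KO values moved with the length of the lists: the H3K36me2 lists of KO replicates 2 and 3 held 37447 and 45180 peaks against 106720 in replicate 1 and 85387 to 94136 in WT. Over all genes the order of the classes was the same in all 6 H3K36me2 lists. The difference between lost and kept genes was -13.0, -8.10 and -10.2 percentage points in the WT lists and -5.50, -5.77 and -3.03 in the KO lists, a contrast between genotypes with an exact permutation p of 0.1 (adjusted 0.1 over 2 values). As a ratio of the lost to the kept share the genotypes overlapped, at 0.805, 0.879 and 0.852 in the WT lists and 0.912, 0.787 and 0.896 in the KO lists. Among island genes alone the WT shares were 66.9% of kept, 52.0% of lost and 7.85% of never occupied genes, with median windows of 8306, 8063 and 6767 bp. Among genes without an island they were 74.9% of kept, 70.1% of lost, 66.0% of gained and 11.0% of never occupied genes, and the order of kept, lost and gained genes was not the same in every list. The longer windows of kept genes move with these shares, and their part in them was not tested.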

How the data were processed

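KDM2A ChIP-seq was compared in 3 WT and 3 KO libraries, and 6 H3K36me2 libraries were used beside them. Of the input libraries, 6 in number, nothing was used here. Per the submitters' processing notes and the methods, the authors ran nf-core/chipseq with BWA alignment to GRCm38, and MACS2 in broad mode gave 1 deposited list per library without pooling. The fold of each peak is the deposited ratio over the local control and was not normalized between libraries. Read filters and the MACS2 version are not given in the sources used here. Depth is unknown, since only peaks were at hand, and no counting interval can be given. The labels did not say whether libraries came from separate cultures beyond the replicate number and sex, so p-values measure the spread between these libraries.

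CpG islands were found in the GRCm38.p6 sequence, repeats masked, as segments of over 200 bp with at least 50% GC and an observed to expected CpG ratio above 0.6, from a running score of 17 per CpG and -1 per other base. This gave 16099 islands. The main TSS of a gene was that of its best APPRIS-ranked coding transcript. Windows reached 2 kb either side of all 93526 annotated TSS. Single values were compared by two-sided exact permutation tests over lists, and folds at genes in all 6 lists by limma 3.58.1 (lmFit, eBayes with trend) in R 4.3.3, with log2 folds centred on the list median. The fit was tested on simulated data. Tables were made in Python 3.11.15 with pandas 2.3.3 and scipy 1.17.1. Values of the authors' other columns were not used.

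The comparison, the 38 gene lists and the rule for named genes were chosen with earlier results of these data known. The rule took the 6 highest mean folds in each strict class, the 4 highest over all lists, the 3 largest fold differences each way without overlap, up to 4 genes per gene list (largest difference in list number first), and Kdm2a, Ndufv3 and Atp5l. Other members are named where a count is small, after their values were seen. Alternatives were the peak number, a fold minimum, other windows and overlaps, coding transcripts, autosomes, other list minimums, each list left out, a replicate block, and for fold also no centring, ranks, another peak per gene and no trend. Female lists alone were added after seeing the data.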

Additional observations from a re-analysis of the deposited data

Results flagged for a closer look

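The median fold of the strongest promoter peak was higher in KO than in WT for the male pair, by 0.0654, and lower in KO for every pairing of the female lists, with a mean difference of -0.154. The share of strongest promoter peaks centred downstream of the TSS was likewise higher in KO for the male pair, by 0.854 percentage points, and lower in KO for every pairing of the female lists, with a mean difference of -0.766. With 1 male mouse per genotype neither difference between the sexes was tested.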

How the results depend on the processing

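The values rest on deposited peaks, so a promoter below the authors' threshold in 1 list counts as empty there, and 3 lists against 3 cannot give a p under 0.1. The difference in occupied genes was negative and the difference in island share positive under all alternatives run, at -1810 to -62.3 genes and 0.664 to 3.34 percentage points. Occupancy of island genes was lower in KO except with equal numbers of peaks, where the difference was 0.00776 percentage points. Equal numbers gave 1205 lost, 1132 gained, 61 strict lost and 67 strict gained genes. Peaks with a fold of at least 3 gave 2714 kept, 2470 lost and 825 gained genes. Leaving out 1 list, which makes both remaining lists of that genotype necessary, gave 1041 (without WT replicate 1) to 3801 lost genes (without KO replicate 3), 192 to 1401 gained, 299 to 433 strict lost and 38 to 63 strict gained genes. Gained genes outnumbered lost genes without any 1 of the WT lists. The female lists alone, chosen after seeing the data, gave 857 gained, 499 strict lost and 149 strict gained genes. limma called 0 genes under all 13 alternatives for fold, with 189 to 357 genes at an unadjusted p under 0.05. Without centring 41 of these were higher and 316 lower in KO.

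With the replicate number as a replicate block, the mean difference was -1369 genes with a promoter peak, with an exact sign-flip p of 0.25 over 3 pairs, the smallest possible, and limma called 0 genes. Deviations of same-numbered lists correlated at 0.00050, -0.019 and 0.016 for fold and at 0.016, -0.013 and 0.021 for occupancy. Such values cannot show whether same-numbered libraries were prepared together. The labels give these libraries only a number and the sex of the mice in common.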
